A study of Mus musculus with 4 samples.

Results

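The CCAAT/enhancer-binding protein (C/EBP) family and the Tribbles pseudokinases Trib1 and Trib2 were followed across 4 sorted myeloid cell populations of mouse bone marrow, each measured on 1 microarray. The genes were taken by symbol from the array's annotation: of 8 listed symbols, 6 had at least 1 probe set, and these had 12 probe sets together, out of 12393 named genes and 22690 probe sets on the array. Cebpa had 1 probe set, Cebpb, Cebpd, Trib1 and Trib2 had 2 each, and Cebpg had 3. The table used here assigns no probe set to Cebpe or Cebpz, which are not analysed here.

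The 4 populations came from untreated C57BL/6 mice of 8 weeks, backcrossed for at least 10 generations, that carry green fluorescent protein (GFP) at the locus of Gfi1, a repressor of transcription in blood cell development. They were CD11b+, Gr1-low cells of a GFP:Gfi1 KI/KI mouse (Gfi1 knock-out monocytes, whose label names no GFP gate), CD11b+, Gr1-high granulocytes of the GFP:Gfi1 KI/WT genotype, and the GFP-high and the GFP-low fraction of CD11b+, Gr1-low cells of that genotype (GFP-high and GFP-low monocytes). The heterozygous populations therefore carry 1 knock-in allele as well, and no population without the knock-in was measured. The sources used here do not say how many animals were pooled for an array. With 1 array for each population no test could be made, and every difference given here is a description of these arrays without a replicate check.

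C/EBP proteins are basic leucine zipper (bZIP) transcription factors that bind DNA as dimers with each other or with related factors. C/EBP-alpha, encoded by Cebpa, is needed for granulocyte-monocyte progenitors to form, and C/EBP-beta, encoded by Cebpb, acts in emergency granulopoiesis, in macrophage activation and in the survival of some monocytes. C/EBP-delta, encoded by Cebpd, is induced in inflammation, and C/EBP-gamma, encoded by Cebpg, lacks an activation domain and acts as a dimer partner. C/EBP-epsilon, encoded by Cebpe, drives secondary granule genes. Trib1 and Trib2 are pseudokinases that bring C/EBP-alpha to the ubiquitin ligase COP1 for degradation. Protein levels were not measured.

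The promoters of Cebpa, Cebpb and Cebpg are shown because these 3 genes were lower together in GFP-high monocytes, as described below. Each sequence is the 250 bases before the RefSeq start of the gene on GRCm38.p6, read 5′ to 3′ on the gene's own strand. The Cebpa window lies at chr7:35119043-35119292 on the plus strand, the Cebpb window at chr2:167688665-167688914 on the plus strand and the Cebpg window at chr7:35056567-35056816 on the minus strand. Capitals mark matches on either strand to TTGCNNAA or TTGCG (C/EBP), AATC (the core bound by Gfi1), CCAAT and TATAAA.
Cebpa: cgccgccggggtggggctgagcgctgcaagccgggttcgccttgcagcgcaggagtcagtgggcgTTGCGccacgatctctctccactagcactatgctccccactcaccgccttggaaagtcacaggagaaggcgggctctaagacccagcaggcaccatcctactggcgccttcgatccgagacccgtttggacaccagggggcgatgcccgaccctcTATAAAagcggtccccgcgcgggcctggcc
Cebpb: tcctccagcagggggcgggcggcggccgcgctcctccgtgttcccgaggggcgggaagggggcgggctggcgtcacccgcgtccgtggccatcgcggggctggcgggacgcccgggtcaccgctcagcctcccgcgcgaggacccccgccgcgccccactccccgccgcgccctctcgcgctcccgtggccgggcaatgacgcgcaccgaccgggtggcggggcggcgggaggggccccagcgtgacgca
Cebpg: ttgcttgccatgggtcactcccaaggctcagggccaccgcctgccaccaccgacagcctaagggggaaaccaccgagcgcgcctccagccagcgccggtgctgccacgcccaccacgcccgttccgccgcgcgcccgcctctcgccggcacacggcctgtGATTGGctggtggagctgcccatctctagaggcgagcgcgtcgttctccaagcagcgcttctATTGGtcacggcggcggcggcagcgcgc
In the Cebpa window TTGCG stands at position -185 from the start and TATAAA at -30. The Cebpb window holds none of these motifs, and 81.6% of its bases are G or C, against 66.4% for Cebpa, 70.8% for Cebpg and a median of 52.4% over 32851 promoters. The Cebpg window holds AATC at -90 and CCAAT at -89 and -28, all on the opposite strand, and the first 2 of these matches overlap. Among the 32851 promoters 9.56% held TTGCNNAA, 14.52% TTGCG, 69.0% AATC, 33.8% CCAAT and 12.4% TATAAA. The promoter of Trib2, from the same table, held 1 match to AATC. In the map order of protein-coding genes, Cebpa and Cebpg lie on chromosome 7 with 1 predicted gene, Gm45095, between them.

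The values are on a log2 scale, so a difference of 1 is 2-fold. Values at or under 5.18, the 40th percentile of all values, were treated as lying at a floor where levels have no order. Where a gene had several probe sets, the one with the highest mean over the 4 arrays stood for it. The scatter between probe sets of the same gene, computed over 2584 genes, was the one measure of error available, and it does not cover the spread between animals. It was 0.38 for knock-out monocytes minus granulocytes, 0.26 for knock-out minus GFP-high monocytes, 0.16 for knock-out minus GFP-low monocytes, 0.32 for granulocytes minus GFP-high monocytes, 0.34 for granulocytes minus GFP-low monocytes and 0.27 for GFP-high minus GFP-low monocytes.

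The targeted gene Gfi1 read 5.18 in knock-out monocytes, 7.31 in granulocytes, 10.31 in GFP-high monocytes and 3.74 in GFP-low monocytes, the first and the last of these below the floor. Whether its probe set lies in the part replaced by GFP is not known here. The 12 monocyte markers had a median of 12.29 in knock-out monocytes, 8.10 in granulocytes, 7.29 in GFP-high monocytes and 12.26 in GFP-low monocytes, all 12 above the floor on each array. The 7 primary granule markers had medians of 11.42, 8.72, 13.13 and 9.31 in the same order. The GFP-high array thus went against its label as monocytes, with monocyte markers lower than in granulocytes, and the label's name is kept here for the sort alone. The knock-out array stood apart in sex-linked transcripts: Eif2s3y, on the Y chromosome, read 8.31 there and between 3.40 and 4.39 on the other arrays. All 8 listed genes lie on autosomes, and what this difference contributes to the comparisons with knock-out cells was not tested. For Actb, the gap between the 3' and 5' control probe sets, a sign of RNA quality, was 0.28 on the knock-out array and between 0.08 and 0.16 on the others. For Gapdh that gap was -0.10 on the knock-out array and -0.06 on each of the others, the opposite direction.

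Cebpa was high in the knock-out and GFP-low monocytes and low in the other populations. It read 10.27 in knock-out monocytes, 8.47 in granulocytes, 8.77 in GFP-high monocytes and 10.51 in GFP-low monocytes. The knock-out and GFP-low arrays lay 0.24 apart, a gap larger than the scatter of 0.16, while granulocytes and GFP-high monocytes differed by less than the scatter. Cebpa was 4.09-fold lower in granulocytes than in GFP-low monocytes, a log2 difference of -2.03, and 4.30% of all genes tested lay that far down or farther. In GFP-high monocytes it was 3.33-fold lower than in GFP-low monocytes (log2 difference -1.74). Against Gfi1 knock-out monocytes, the same gene was 3.47-fold higher in the knock-out cells than in granulocytes and 2.83-fold higher than in GFP-high monocytes. Cebpa rests on a lone probe set, so no other probe set checks these values.

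Cebpb was lowest in GFP-high monocytes, with the other arrays at most 0.44 apart. Its representative probe set, 1418901_at, read 12.10 in knock-out monocytes, 12.55 in granulocytes, 10.90 in GFP-high monocytes and 12.33 in GFP-low monocytes, and its other one, 1427844_a_at, read 11.08, 11.50, 9.69 and 11.38 in that order. Both probe sets were lowest in GFP-high monocytes, and both placed granulocytes within the scatter of GFP-low monocytes. In GFP-high monocytes Cebpb was 2.69-fold lower than in GFP-low monocytes by the first probe set and 3.24-fold lower by the other. In granulocytes it exceeded GFP-high monocytes 3.13-fold, where 3.84% of all genes tested were as high or higher. Knock-out monocytes were 2.30-fold above GFP-high monocytes and 1.17-fold below GFP-low monocytes.

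Cebpg followed Cebpa in its order on the monocyte arrays, with a smaller range. Probe set 1425262_at read 9.33 in knock-out monocytes, 8.58 in granulocytes, 8.29 in GFP-high monocytes and 9.52 in GFP-low monocytes. Probe set 1451639_at read 7.58, 7.35, 6.34 and 7.74 in that order, and 1425261_at lay below the floor on all 4 arrays. Both probe sets above the floor were lowest in GFP-high monocytes, 2.34-fold and 2.64-fold below GFP-low monocytes. They disagreed on granulocytes, which were 1.93-fold below GFP-low monocytes by the first and 1.31-fold below by the other, so that granulocytes exceeded GFP-high monocytes by 0.28, within the scatter, or by 1.01. Knock-out monocytes were 2.05-fold above GFP-high monocytes by the first probe set, close to the 2-fold rule.

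Cebpd ran the other way and was highest in granulocytes. Probe set 1423233_at read 10.70 in knock-out monocytes, 11.84 in granulocytes, 11.32 in GFP-high monocytes and 10.60 in GFP-low monocytes. Granulocytes lay above every monocyte array, and the knock-out and GFP-low arrays differed by 0.10, less than the scatter. The gene was 2.36-fold higher in granulocytes than in GFP-low monocytes, with a log2 difference of 1.24, and 1.65-fold higher in GFP-high than in GFP-low monocytes. In knock-out monocytes Cebpd was 2.21-fold lower than in granulocytes. The other probe set, 1456605_at, lay near the floor at 5.33, 6.08, 5.29 and 5.06 in the order of arrays just given. It too was highest in granulocytes, and it showed no such gap between knock-out and GFP-high monocytes, at a log2 difference of 0.03 against -0.63 for the first probe set.

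Trib1 had the widest range of the genes followed, and granulocytes set it. Probe set 1424880_at read 8.02 in knock-out monocytes, 10.41 in granulocytes, 8.57 in GFP-high monocytes and 7.96 in GFP-low monocytes. Probe set 1424881_at read 4.88, 6.92, 5.22 and 4.70 in that order, clearly above the floor in granulocytes alone. By the first probe set Trib1 was 5.46-fold higher in granulocytes than in GFP-low monocytes, and 2.18% of all genes tested were as high or higher. It exceeded GFP-high monocytes 3.59-fold in granulocytes, and it was 1.52-fold higher in GFP-high than in GFP-low monocytes. Knock-out monocytes stood 5.24-fold below granulocytes and within the scatter of GFP-low monocytes, at a log2 difference of 0.06. Granulocytes thus had the highest Trib1 reading of the 4 arrays. Their Cebpa reading was the lowest, but it lay within the scatter of that in GFP-high monocytes, where Trib1 was 3.59-fold lower. A link between Trib1 and Cebpa was not tested.

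Trib2 was below the floor on every array. Its probe sets ranged from 3.38 to 4.32, so no fold is given.

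**Figure D1:**
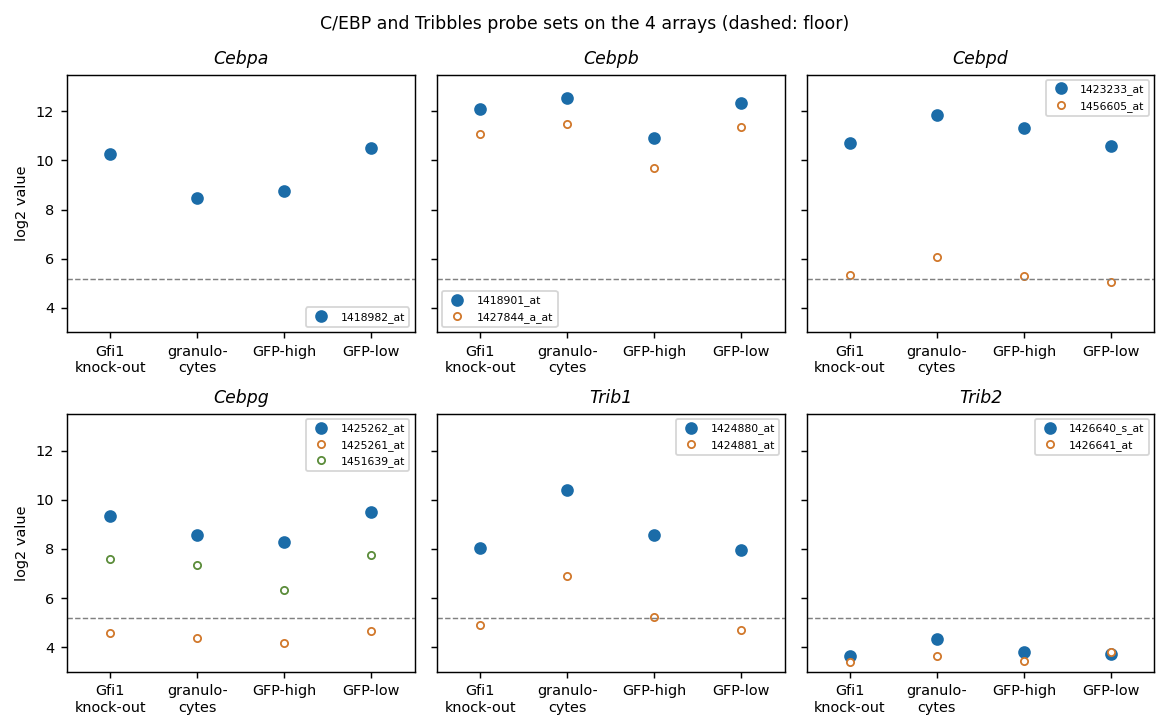
Log2 value (y axis) of each probe set of the 6 genes on the 4 arrays (x axis), with filled points for the probe set that represents the gene, open points for its others and a dashed line at the floor of 5.18. Cebpa is high on the knock-out and GFP-low arrays, as is Cebpg by its representative probe set. By 1451639_at, Cebpg in granulocytes lies within the scatter of knock-out monocytes. Cebpb is low on the GFP-high array, Cebpd and Trib1 are highest in granulocytes, and Trib2 stays below the floor.

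The family was then set against all genes in each comparison. Of the 6 genes, the 5 above the floor entered, all but Trib2, and they were read against the share of all genes tested that passed the same rule of 2-fold. Comparisons that have an array in common are not independent of each other. Because each array holds RNA of a whole sorted population, fewer cells of a type and less RNA per cell cannot be told apart.

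GFP-high and GFP-low monocytes have the genotype and the Gr1 gate in common. In GFP-high monocytes 3 of the 5 genes were at least 2-fold lower, where 9.61% of 8232 genes were, and 0 of 5 passed the rule upward, where 9.03% did. The lower genes were Cebpa (-1.74), Cebpb (-1.43) and Cebpg (-1.23). Cebpd (0.72) and Trib1 (0.61) were on the other side, under the 2-fold rule. The median of the 5 was -1.23, against 0.03 for all genes tested. Markers moved with this difference: the summed level of the 12 monocyte markers was 11.80 in GFP-high and 16.04 in GFP-low monocytes on the log2 scale, and that of the 7 primary granule markers 15.74 and 13.05. Of 6 eosinophil markers, 5 were above the floor in GFP-high and 2 in GFP-low monocytes, with summed levels of 12.72 and 8.32. Macrophage markers were above the floor for 7 of 7 and 6 of 7, with summed levels of 11.55 and 10.54. They were split, with 4 at least 2-fold higher and 1 lower in GFP-high monocytes. Of 10 secondary and tertiary granule markers 7 were higher there and 0 lower (median 1.545). Dendritic cell markers were lower for 2 of 3 (median -2.40). The part of these markers in the result was not tested. B, T and NK cell markers had medians between 5.18 and 5.70 on the 2 arrays, at or near the floor.

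Set against GFP-low monocytes, granulocytes had 2 of the 5 genes at least 2-fold higher, Trib1 (2.45) and Cebpd (1.24), where 10.0% of 8503 genes were. Cebpa (-2.03) was at least 2-fold lower, where 18.2% of genes were. Cebpb lay at 0.22, within the scatter, and Cebpg at -0.95, just short of the rule. The members' median was 0.22, against 0.00 for all genes tested. The summed level of the 7 mature neutrophil markers that had a probe set was 16.02 in granulocytes and 14.76 in GFP-low monocytes. S100a8 and S100a9, the brightest of the 7 on both arrays, weigh most in that sum. By single genes, 5 of the 7 passed the rule upward and 0 downward, with a median difference of 4.29. For the monocyte markers the summed level was 12.97 in granulocytes and 16.04 in GFP-low monocytes. Among 10 secondary and tertiary granule markers, 7 passed the rule upward (median 1.58), and dendritic cell markers were lower for 2 of 3 (median -1.72). Primary granule markers were split, with 3 higher and 2 lower (median -0.55). B cell markers were higher in granulocytes for 2 of 4, T cell markers for 1 of 2 and erythroid markers for 1 of 4. What these contribute was not tested.

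Set against GFP-high monocytes, granulocytes had 2 of the 5 genes at least 2-fold higher, Trib1 (1.84) and Cebpb (1.64), where 8.93% of 8457 genes were, and 0 of 5 were at least 2-fold lower, where 16.4% were. Cebpd lay at 0.51 and Cebpg at 0.28, and Cebpa at -0.30. The differences of Cebpa and Cebpb in this comparison lay 1.94 apart, where the scatter of such a quantity was 0.45. Both genes were low in GFP-high monocytes relative to GFP-low monocytes, while granulocytes stood at -2.03 for Cebpa and at 0.22, within the scatter, for Cebpb relative to GFP-low monocytes. Of 7 primary granule markers, 5 were at least 2-fold lower in granulocytes than in GFP-high monocytes (median -4.91), and 4 of 5 eosinophil and 4 of 7 macrophage markers were lower (medians -4.01 and -1.27). Mature neutrophil markers were higher for 5 of 7 (median 2.51), and monocyte markers for 4 of 12 (median 0.75). B cell markers were higher for 2 of 4, T cell markers for 1 of 2 and erythroid markers for 3 of 4. The part of these markers was not tested.

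Between Gfi1 knock-out and GFP-low monocytes, 0 of 5 genes were at least 2-fold apart, where 0.637% of 8010 genes passed the rule upward and 1.27% downward. The median of the 5 was -0.19, against 0.03 for all genes tested. Differences ran from -0.24 for Cebpa to 0.10 for Cebpd. Cebpa, Cebpb (-0.23) and Cebpg (-0.19) exceeded the scatter of 0.16 slightly, and Cebpd and Trib1 did not. Genotype differs here, and the GFP gate may differ with it, since the label of the knock-out cells names none. The arrays also differ in the sex-linked transcripts given above. The summed level of the primary granule markers was 14.30 in knock-out and 13.05 in GFP-low monocytes, and that of the 10 secondary and tertiary granule markers 14.39 and 15.38. Eosinophil markers were at least 2-fold higher in knock-out monocytes for 3 of 4 (median 2.23), with summed levels of 10.96 and 8.32. Dendritic cell markers were lower for 2 of 3 (median -1.07), with summed levels of 10.15 and 11.62. Their part in the result was not tested.

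Knock-out monocytes set against GFP-high monocytes had 3 of 5 genes at least 2-fold higher, where 9.53% of 8195 genes were, and 0 at least 2-fold lower, where 7.81% were. They were Cebpa (1.499), Cebpb (1.20) and Cebpg (1.04), while Cebpd (-0.63) and Trib1 (-0.55) were lower without reaching 2-fold. Cebpg fell short of the rule, at 0.90, with the mean over probe sets. In the same comparison 12 of 12 monocyte markers were at least 2-fold higher (median 4.34). Of 7 primary granule markers 6 were lower and 1 higher (median -1.91), and of 10 secondary and tertiary granule markers 7 were lower (median -2.13). Mature neutrophil markers were lower for 4 of 7 and higher for 1 (median -1.06), eosinophil markers lower for 4 of 5 (median -2.07), and macrophage markers lower for 5 of 7 and higher for 1 (median -2.04). Set against granulocytes, knock-out monocytes had 1 of 5 genes at least 2-fold higher, Cebpa (1.80), where 20.3% of 8520 genes were. Trib1 (-2.39) and Cebpd (-1.14) were at least 2-fold lower there, where 11.2% of genes were. With the mean over probe sets, Cebpd stood at -0.95 and no longer passed the rule. Markers moved with this comparison too: 12 of 12 monocyte markers were at least 2-fold higher in knock-out monocytes (median 3.98), 6 of 7 primary granule markers were higher and 1 lower (median 3.02), and 7 of 7 mature neutrophil markers were lower (median -3.60). Of 10 secondary and tertiary granule markers, 8 were lower (median -2.83). Of 4 eosinophil markers tested, 3 were higher and 1 lower (median 2.34). B cell markers were lower in knock-out monocytes for 2 of 4, T cell markers for 1 of 2 and erythroid markers for 3 of 4. The part of these markers in either comparison of knock-out cells was not tested.

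**Figure D2:**
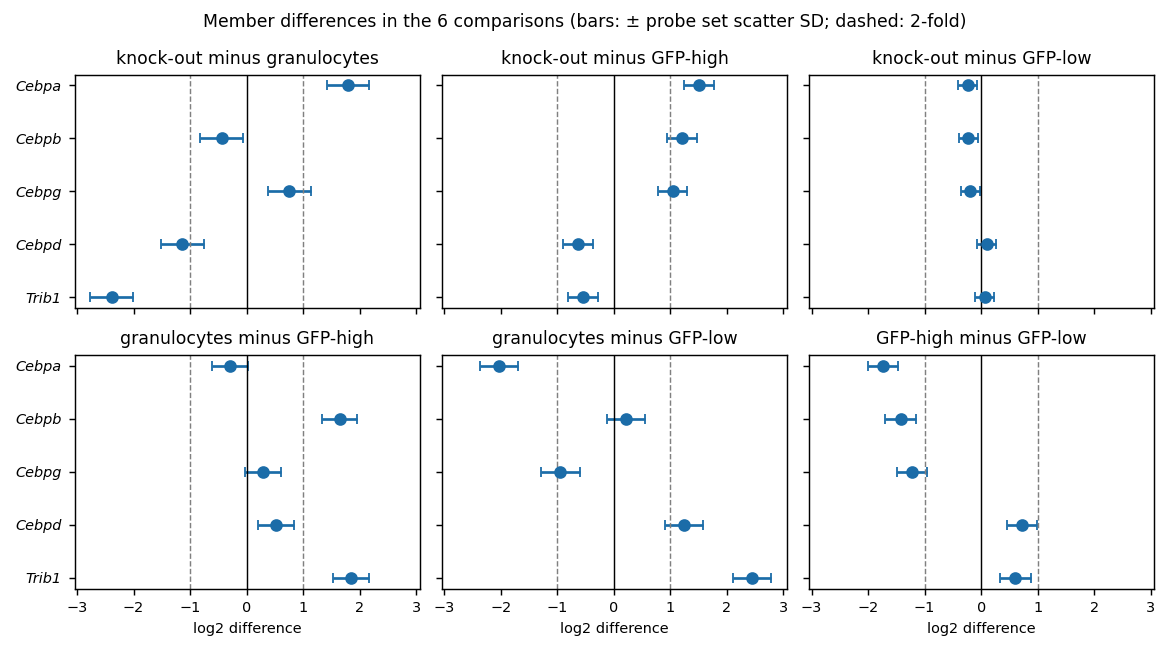
Log2 difference (x axis) of the 5 genes above the floor (rows) in the 6 comparisons (panels), with bars of ± the scatter SD between probe sets of a gene and dashed lines at 2-fold. All 5 genes lie between -0.24 and 0.10 for knock-out minus GFP-low monocytes, and Trib1 reaches 2.45 for granulocytes minus GFP-low monocytes.

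**Figure D3:**
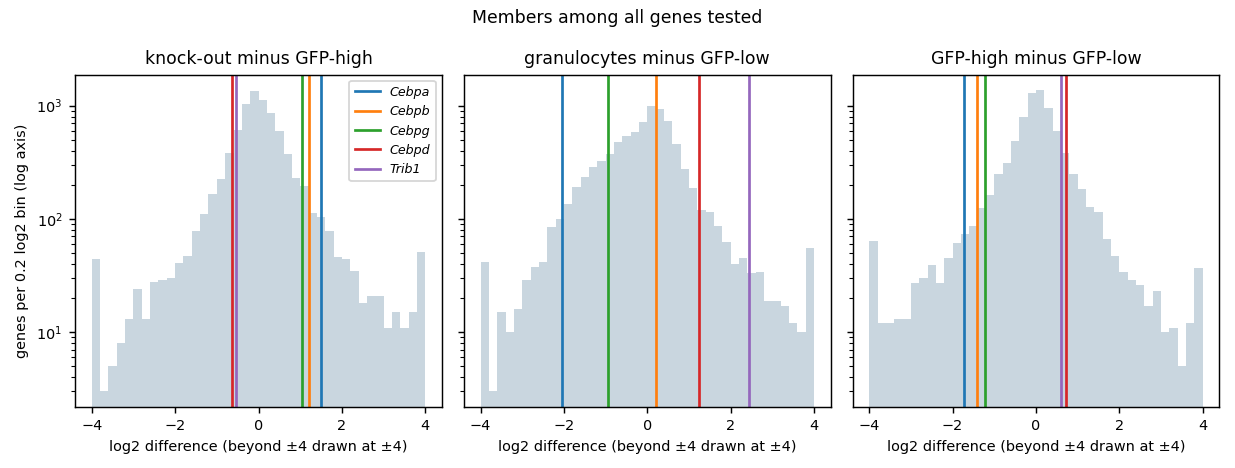
Histograms of the log2 difference (x axis) of all genes tested in 3 comparisons, counted in bins on a log axis, with a coloured line for each of the 5 genes. Trib1 at 2.45 for granulocytes minus GFP-low monocytes lies farthest out, with 2.18% of genes tested as high or higher. Cebpa lies at -2.03 in that comparison, with 4.30% of genes as low or lower.

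The genes whose profile over the 4 arrays was nearest to each of the 5 were found as the smallest root mean square distance between centred log2 values among 8620 genes. For Cebpa they were Dennd6a (distance 0.04), Zfp386 (0.06) and Tmem192 (0.08). For Cebpb they were Ninj1 (0.04), Lfng (0.06) and Mcl1 (0.06), the last an anti-apoptotic gene of the Bcl2 family that read 11.69 in knock-out monocytes, 12.08 in granulocytes, 10.56 in GFP-high monocytes and 11.82 in GFP-low monocytes. For Cebpg they were Mfap3 (0.01), Gabarapl1 (0.04) and Galnt10 (0.05), for Cebpd Gfpt1 (0.03), Parp6 (0.04) and Map11 (0.04), and for Trib1 Sema4f (0.07), Iqsec1 (0.10) and Arsg (0.10). Within the family Cebpg was nearest to Cebpa, at a distance of 0.44 and rank 404, and Cebpd was nearest to Trib1, at 0.55 and rank 405. With 4 points to a profile many genes match closely, and the distances are descriptions.

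**Figure D4:**
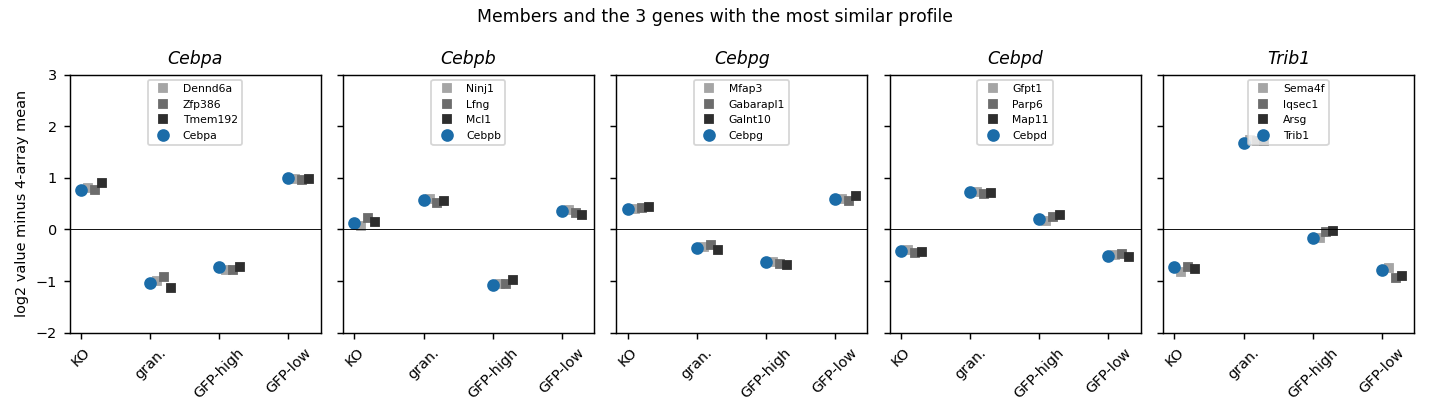
Log2 value minus the mean over the 4 arrays (y axis) for each of the 5 genes (circles) and the 3 genes nearest to it (squares, moved slightly sideways) on the 4 arrays (x axis; KO is knock-out, gran. is granulocytes). The squares lie close to the circles, at distances from 0.01 for Mfap3 to 0.10 for Arsg.

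Genes that work with the C/EBP proteins were read from 6 lists, against the shares and medians of all genes tested given above (for granulocytes minus GFP-high monocytes that median was 0.03). Of 9 bZIP partners and relatives, all above the floor on at least 1 array, 8 were tested between knock-out and GFP-low monocytes. Of these 8, 0 were at least 2-fold apart. Ddit3, which encodes the stress-induced C/EBP partner CHOP, read 6.74 in knock-out monocytes, 8.17 in granulocytes, 6.69 in GFP-high monocytes and 6.73 in GFP-low monocytes. Like Trib1 and Cebpd, it was highest in granulocytes, at 1.44 relative to GFP-low monocytes. Nfil3, a bZIP repressor, was 1.30 lower on the log2 scale in GFP-high than in GFP-low monocytes, with readings of 8.64 and 9.94. Batf, a bZIP factor related to AP-1, read 8.74 in knock-out and 7.46 in GFP-high monocytes, a log2 difference of 1.28.

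Among genes of C/EBP turnover and modification, 9 of 15 had a probe set used here. In GFP-high relative to GFP-low monocytes, 2 of the 8 tested were at least 2-fold higher and 0 lower, with a list median of 0.19. Both were cyclin-dependent kinases that phosphorylate C/EBP-alpha among many other substrates: Cdk2 read 9.83 in GFP-high and 8.17 in GFP-low monocytes, and Cdk1 10.83 and 9.26. Cdk1 was lower in granulocytes than in GFP-low monocytes, by -1.31. Ddb1, an adaptor of cullin ubiquitin ligases, was lower in granulocytes than in GFP-high monocytes, by -1.31. Cop1, the ubiquitin ligase that acts with Trib1, was chosen for mention after its values were seen: it read 10.47 in knock-out monocytes, 10.84 in granulocytes, 10.46 in GFP-high monocytes and 10.35 in GFP-low monocytes, within 2-fold throughout.

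Of the 12 myeloid transcription factors that act with C/EBP proteins, 11 were tested between GFP-high and GFP-low monocytes, with 4 at least 2-fold higher and 2 lower (median 0.14). Both lower factors, Klf4 among them, are also monocyte markers here, as are the 2 lower in granulocytes below. A link of these factors to the C/EBP genes was not tested. Gfi1, whose reporter set the GFP gates, is in this list and is 1 of the 4, at 5.13 above the floor that stands for GFP-low monocytes. Klf5, a Krüppel-like transcription factor, read 4.73 in knock-out monocytes, below the floor, 10.57 in granulocytes, 10.73 in GFP-high monocytes and 5.72 in GFP-low monocytes. Klf4, which promotes monocyte development, read 11.36, 7.28, 6.70 and 11.38 in that order, the same split of the arrays as for Cebpa with a wider range. Ets2 read 7.03, 11.10, 9.34 and 8.09 and was highest in granulocytes, as Trib1 was. Between granulocytes and GFP-low monocytes 4 of 11, Gfi1 among them, were at least 2-fold higher and 2 lower (median 0.60), and between knock-out and GFP-low monocytes 0 of 10 were higher and 1, Ets2 at -1.06, was lower (median -0.05).

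The 16 granulocytic genes known as C/EBP targets passed the 2-fold rule upward in GFP-high relative to GFP-low monocytes for 9 and downward for 1, with a median of 1.34. All of them but Il6ra, Lyz2 and Itgb2 are also granule or mature neutrophil markers here. The counts for this list therefore largely repeat those of the markers, and a link to the C/EBP genes was not tested. Mpo, which encodes myeloperoxidase, read 13.66 in GFP-high and 8.08 in GFP-low monocytes. In granulocytes relative to GFP-low monocytes, 7 were at least 2-fold higher and 2 lower (median 0.95), with the gelatinase gene Mmp9 at 5.14. Between knock-out and GFP-low monocytes 4 were higher and 5 lower (median -0.32). Mpo was 3.34 higher on the log2 scale in knock-out monocytes, while the secondary granule genes Ltf and Camp, known targets of C/EBP-epsilon, stood at -4.82 and -5.04. Between the same arrays the probe sets that stand for the C/EBP genes measured here differed by at most 0.24, and the other probe set of Cebpb stood at -0.30. The level of Cebpe is not analysed here, and a link of Ltf and Camp to the level of any C/EBP gene was not tested.

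Of 12 monocytic and inflammatory targets, 10 were tested. In GFP-high relative to GFP-low monocytes 7 were at least 2-fold lower and 1 higher, with a median of -2.11. That median depends on the floor: it was -1.39 with a floor at the 20th percentile, -1.19 with one at the 60th and -1.44 with none. The list was led by the chemokine gene Ccl3 (-4.22) and Csf1r, which encodes the M-CSF receptor (-4.04). In granulocytes relative to GFP-low monocytes 3 were higher and 4 lower (median 0.06). There Il1b, the interleukin-1 beta gene, stood at 4.64 and Ptgs2, the inducible cyclooxygenase gene, at 3.12. In granulocytes relative to GFP-high monocytes 6 were higher and 0 lower (median 1.48), with Il1b and Csf1r among the higher genes. Between knock-out and GFP-low monocytes 1 was higher and 0 lower (median -0.09). Il1b and Csf1r also stand in the marker lists for mature neutrophils and monocytes. The parts of cell type and of the C/EBP genes in these counts were not tested.

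The list of growth genes linked with C/EBP-alpha, which also holds the cell cycle inhibitor Cdkn1a, had 7 of 8 members with a probe set used here. Whether C/EBP-alpha acts on the RNA of these genes was not tested. In GFP-high relative to GFP-low monocytes 1 of 7 was at least 2-fold higher, the proto-oncogene Myc at 1.33, and 1 lower, Cdkn1a at -2.31 (median 0.62, or 0.29 with a floor at the 60th percentile). Cdkn1a read 9.40 in knock-out monocytes, 6.88 in granulocytes, 7.14 in GFP-high monocytes and 9.44 in GFP-low monocytes. This is the split of the arrays seen for Cebpa. In granulocytes relative to GFP-low monocytes 1 of 6 was higher, Max, the dimer partner of Myc, at 1.55. On the lower side were 2, Cdkn1a at -2.57 and Cdk4, a cyclin D-dependent kinase, at -2.14. Between knock-out and GFP-low monocytes 0 of 6 were at least 2-fold apart (median -0.11).

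**Figure D5:**
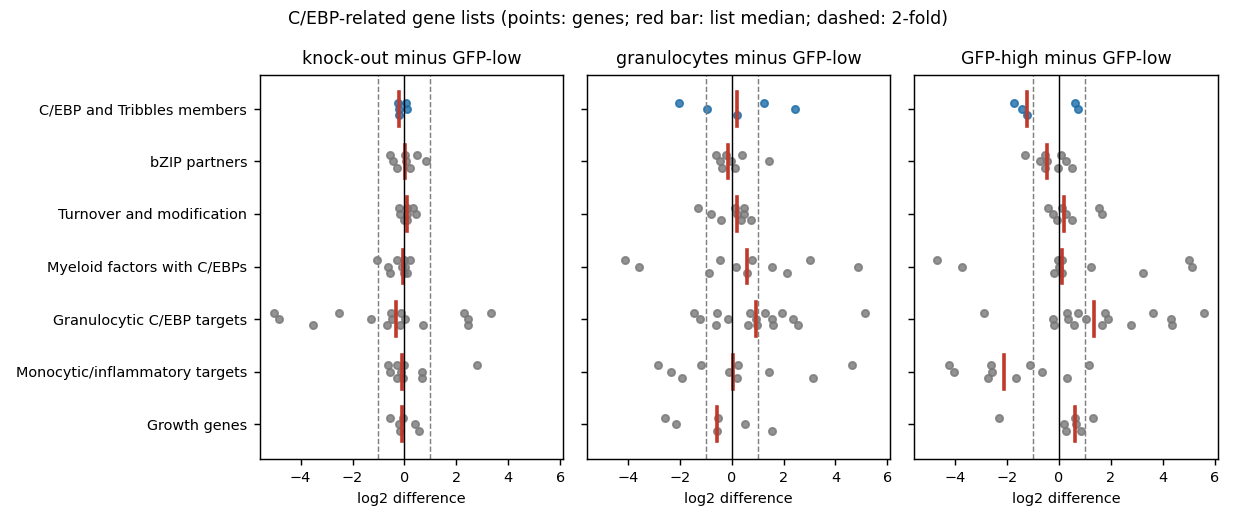
Log2 difference (x axis) of every gene tested in the 5 members and the 6 C/EBP-related lists (rows) for 3 comparisons against GFP-low monocytes (panels), with a red bar at each list's median and dashed lines at 2-fold. The granulocytic targets have a median of 1.34 and the monocytic and inflammatory targets one of -2.11 for GFP-high minus GFP-low monocytes, the last between -1.19 and -1.44 with other floors or none.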

How the data were processed

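Per the labels, biotin-labelled cRNA was prepared from 6 µg of total RNA by the Affymetrix protocol. The authors deposited 1 value per probe set and array, taken as log2 from the range of the values (2.70 to 14.50, array medians 5.91 to 6.01). The log base and the way the probe sets were background-corrected, summarised and normalized are not known from the labels. A normalization to a common distribution would hide a shift of most genes, and values near the top of the scale are compressed. Arrays have no read depth, and their number limits the precision. Of 22690 probe sets, the platform table gave 20393 a gene of their own, 691 several genes (not used) and 1606 none. Names came through gene identifiers (20364 matched) from the GRCm38.p6 gene table.

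Values below the 40th percentile (5.18) were raised to it, a fold is a bound where 1 of the arrays lay there, and none is given where both did. Called means an absolute log2 difference of 1 or more. For the scatter, the log2 differences of the 2 brightest probe sets of a gene were subtracted, over genes with at least 2 probe sets above the floor on all 4 arrays, and the SD was divided by the square root of 2. From each list, up to 4 genes with the widest range among those at least 2-fold apart in a comparison were named, and for likeness 3 genes for each member with a range of 1 or more. The members and lists were chosen with earlier results of these data known. Promoters came from a RefSeq table that held 4 of the 8 symbols, and all motifs but those for C/EBP of 8 letters and for Gfi1 were added after the sequences were seen. The alternatives are given in the closing section. The calculations were tested on simulated data. Python 3.11.15, pandas 2.3.3, numpy 2.4.6 and matplotlib 3.10.9 were used.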

Additional observations from a re-analysis of the deposited data

How the results depend on the processing

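No paired analysis was possible because each population was measured on 1 array. The member differences were recomputed 240 times, for 30 differences under floors at the 20th and 60th percentiles, no floor, quantile normalization, median centring, the mean over probe sets, no _x_at or _s_at probe sets, and no genes of the X and Y chromosomes. None changed sign, 238 moved by less than the scatter between probe sets, and 2 crossed the 2-fold rule. Many of these recomputations could not differ from the main result. The representative probe sets lie above every floor used, none of them is an _x_at or _s_at probe set, and the genes are autosomal. Only quantile normalization, median centring and the mean over probe sets could change a value. Both crossings came with the mean over probe sets, which gave -0.95 for Cebpd in knock-out monocytes minus granulocytes and 0.90 for Cebpg in knock-out minus GFP-high monocytes, since a dim probe set of each gene then enters. The same setting moved Cebpd to -0.30 in knock-out minus GFP-high monocytes and Cebpg to -0.54 in granulocytes minus GFP-low monocytes. Of the 288 recomputed list medians, 19 moved by more than the scatter, among them that of the monocytic and inflammatory targets for GFP-high minus GFP-low monocytes, between -1.19 and -1.80 against -2.11, and 0 with a median of 2-fold or more changed sign.

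A 4-fold rule left 1 of 5 members (Trib1) in knock-out monocytes minus granulocytes, 0 in knock-out minus GFP-high, granulocytes minus GFP-high and GFP-high minus GFP-low monocytes, and 2 in granulocytes minus GFP-low monocytes (Cebpa and Trib1). Over all genes that rule called 837 for knock-out monocytes minus granulocytes, 439 for knock-out minus GFP-high, 37 for knock-out minus GFP-low, 583 for granulocytes minus GFP-high, 662 for granulocytes minus GFP-low and 486 for GFP-high minus GFP-low, against 2684, 1421, 153, 2138, 2402 and 1534 at 2-fold. The genes tested numbered 8520, 8195, 8010, 8457, 8503 and 8232 in that order. A 1.5-fold rule called 4466, 2695, 515, 3632, 4083 and 2781 of them. For GFP-high minus GFP-low monocytes, where it called 2781 of 8232 genes, it called 5 of 5 members, with Trib1 just past it at 1.52-fold. With each probe set counted in place of each gene, an alternative chosen after seeing the data like that without X and Y genes, 5 of 9 member probe sets were at least 2-fold apart in knock-out minus GFP-high, granulocytes minus GFP-high and GFP-high minus GFP-low monocytes, where 17.0%, 25.2% and 17.8% of all probe sets were. The other member counts stayed within 1.5 times. Signal near the floor limits the second probe sets of Cebpd and Trib1 and both of Trib2.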
